A study of Mus musculus with 9 samples.

Results

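The genes of the epidermal growth factor (EGF) receptor and of its ligands were followed from mouse auditory nerve tissue into 2 kinds of culture grown from that nerve. The 8 genes were the receptor Egfr and the ligands Egf, Ereg (epiregulin), Areg (amphiregulin), Hbegf (heparin-binding EGF-like growth factor), Tgfa (transforming growth factor alpha), Btc (betacellulin) and Epgn (epigen). Members were the probe sets, that is the groups of short oligonucleotides that report a transcript on an Affymetrix array, whose annotation named exactly 1 gene and that gene alone. By that rule 7 of the 8 genes had a probe set, and they had 17 probe sets of the 34945 on the array that named 1 gene. Areg had none and was not analysed here. The rule itself uses names and no measured value, but the members were chosen with earlier results of these data known.

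All samples came from CBA/CaJ mice of both sexes, 8 to 12 weeks old, with 3 arrays in each of 3 groups. Tissue was auditory nerve taken out of the temporal bone with no further treatment. Cultured cells came from nerve dissociated with trypsin and DNase I, plated on coated dishes and grown to confluence over 5 to 7 days in DMEM/F12 medium with 10% fetal bovine serum and B27 supplement. Neurospheres were such confluent cultures moved to serum-free proliferation medium for 12 more days, with recombinant human EGF at 20 ng/ml, FGF at 10 ng/ml and heparin at 2 µg/ml. Added EGF, absence of serum, medium and time in culture therefore changed together between cultured cells and neurospheres and cannot be told apart. Whether the triplicates of a group were different animals, pools or dishes is not given in the labels, and the p-values therefore measure a spread that may be technical.

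EGF receptor is a receptor tyrosine kinase of the ErbB family. Its ligands are made as membrane-anchored precursors and are released by metalloproteases such as ADAM17. Ligand binding joins EGF receptor to a second ErbB receptor, activates the Ras-ERK cascade among others, and switches on feedback genes that restrain the same receptor and cascade. In peripheral nerve the family is best known for ErbB2 and ErbB3, which carry the neuregulin signal to Schwann cells, and EGF is a standard additive of media in which neural progenitors grow as floating spheres.

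The arrays of a group correlated at 0.993 to 0.997 across genes, and array medians lay between 6.15 and 6.27 on the log2 scale. The labelled tissue carried its defining transcripts, with a mean log2 level of 14.0 for myelin basic protein (Mbp) and 13.2 for neurofilament heavy chain (Nefh). In both cultures Nefh, the neuronal marker Rbfox3 and the myelin gene Mag lay near background. Not all such markers did, with 2 of 6 neuron markers in cultured cells and 3 in neurospheres above background on all arrays. The same held for 3 of 4 measured markers of myelinating glia in each culture. The glial factor Sox10 was still measured at 7.22 in cultured cells and 7.50 in neurospheres. Actin control probe sets at the 3' end exceeded those at the 5' end, a sign of degraded RNA or short labelled products, by 2.71 ± 0.35 (SD, n = 3) for tissue, by 0.36 ± 0.037 for cultured cells and by 0.70 ± 0.15 for neurospheres. Neurosphere array 1 had 1.09% of genes more than 1 log2 unit away from the mean of the other 2 neurosphere arrays, against 0.539% and 0.220% for arrays 2 and 3. Its departure reached several ligands, so values without it are given with them. In RNA of a whole sample, fewer cells of a type and less RNA per cell cannot be told apart.

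Of the 7 measured genes, 4 rose and 2 fell in neurospheres against tissue, and 1 did not pass. A gene passed when its Benjamini-Hochberg adjusted p over all 18193 genes was under 0.05 in limma and its fold change was over 1.5. Passing was common in that comparison, where 42.7% of all genes passed, 21.7% upward and 21% downward. In cultured cells against tissue 3 of the 7 rose, 2 fell and 2 did not pass, beside 42.4% of all genes passing, 20.4% upward and 22% downward. In neurospheres against cultured cells 2 of the 7 rose, none fell and 5 did not pass, beside 17.9% of all genes passing, 9% upward and 8.91% downward. The groups did not overlap for 6, 5 and 4 of the 7 genes in these comparisons, as they did for 68.1%, 68.6% and 48.4% of all genes. The first 2 comparisons share the tissue arrays, so their values stand side by side and are no independent evidence for each other. Beside each level stands a background reference, the 95th percentile on the same array of 74 chemosensory receptor genes, which lay between 5.43 and 5.69. A group is called near background below when all 3 of its arrays lay at or under that reference.

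**Figure D1:**
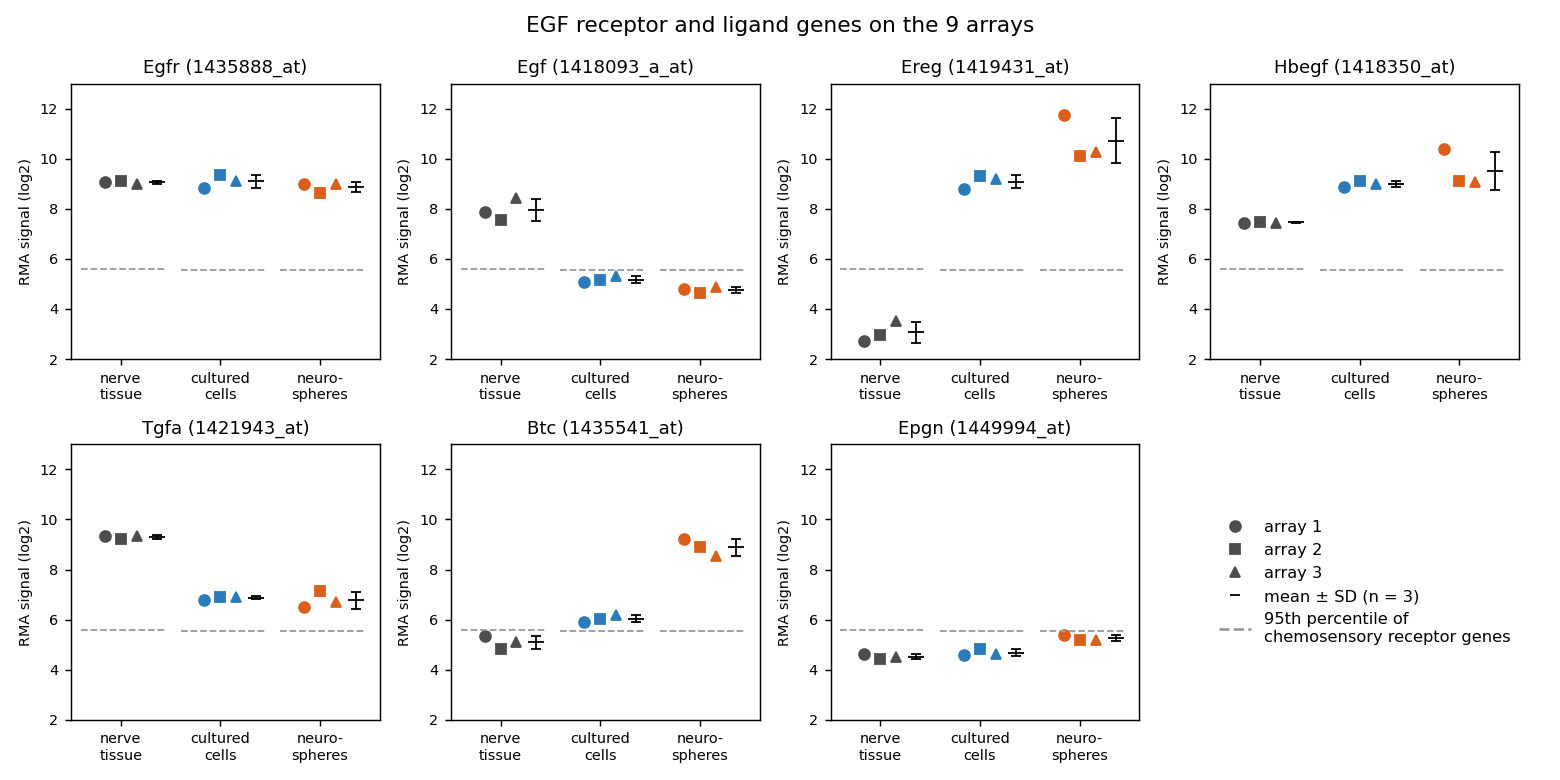
Level of each measured gene on each of the 9 arrays, as the log2 RMA signal of the probe set that stood for the gene (y axis, the same range in all panels), for nerve tissue, cultured cells and neurospheres (x axis). Symbols mark the array number, bars the mean ± SD of 3 arrays, and dashed lines the mean over each group of the background reference. Ereg climbed from background in tissue to above 10 in neurospheres, Btc stood far above the reference in neurospheres, Egf and Tgfa were highest in tissue, and Egfr overlapped across the groups.

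Ereg had the largest change of the 7 genes in both comparisons with tissue. Epiregulin binds EGF receptor and also ErbB4 and is known as a growth factor induced in proliferating and inflamed tissue. Its only probe set, 1419431_at, read 2.72, 2.94 and 3.54 on the tissue arrays, 8.79, 9.31 and 9.18 in cultured cells, and 11.76, 10.11 and 10.29 in neurospheres. The 3 groups did not overlap, tissue was near background, and neurosphere array 1 stood highest. The log2 rise against tissue was 6.03 (SE 0.21, adjusted p = 6.46e-09) in cultured cells and 7.65 (SE 0.41, adjusted p = 4.61e-07) in neurospheres, or 65.2-fold and 201-fold in signal. Without neurosphere array 1 the log2 rise in neurospheres was 7.13. Since the tissue signal was background, these folds compare signal with background. Neurospheres exceeded cultured cells by 1.63 (SE 0.39, adjusted p = 0.0124), a fold of 3.09. Without neurosphere array 1 that difference was 1.11 and still passed, but it missed the threshold with a trended robust prior (adjusted p = 0.0635) and in the methods' t-test after adjustment (adjusted p = 0.108).

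Hbegf rose in both cultures, and the difference between the 2 cultures did not pass. Its product is the ligand that also binds heparan sulfate and serves as the diphtheria toxin receptor in humans. Probe set 1418350_at read 7.43, 7.49 and 7.45 in tissue, 8.87, 9.11 and 8.98 in cultured cells, and 10.38, 9.09 and 9.08 in neurospheres. Every culture array lay above every tissue array, and 2 neurosphere arrays lay just below the highest cultured cell array. The rise over tissue was 1.53 (SE 0.089, adjusted p = 2.43e-07) in cultured cells and 2.06 (SE 0.31, adjusted p = 0.000369) in neurospheres. Neurospheres differed from cultured cells by 0.53, with a 95% interval of -0.20 to 1.26 (adjusted p = 0.241). That estimate was set largely by neurosphere array 1, which stood 1.30 above the mean of the other 2, and without it the difference was 0.099 and the rise over tissue 1.63. The second Hbegf probe set, 1418349_at, gave 1.16 in cultured cells and 1.81 in neurospheres against tissue, both past the threshold over all probe sets, and 0.65 between the cultures, which did not pass (adjusted p = 0.182). On that probe set the cultures did not overlap, with 8.46, 8.75 and 8.78 in cultured cells and 10.25, 8.84 and 8.84 in neurospheres.

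Btc rose in cultured cells over tissue and rose again in neurospheres. Betacellulin binds EGF receptor and ErbB4 and was first known as a mitogen from beta cell tumours. Probe set 1435541_at read 5.33, 4.84 and 5.10 in tissue, 5.90, 6.04 and 6.17 in cultured cells, and 9.22, 8.90 and 8.53 in neurospheres. The 3 groups did not overlap, with tissue near background, cultured cells a little over it and neurospheres far above. The log2 differences were 0.95 (SE 0.13, adjusted p = 0.000126) for cultured cells against tissue, 2.85 (SE 0.17, adjusted p = 8.38e-06) for neurospheres against cultured cells and 3.80 (SE 0.19, adjusted p = 2.74e-07) for neurospheres against tissue. The smallest of these corresponds to 1.93-fold and did not reach 2-fold. Without neurosphere array 1 the last 2 were 2.68 and 3.63. As for Ereg, the differences from tissue compare signal with background, so the share of each step in the rise is not known. Probe set 1421161_at read 3.03, 2.86 and 3.17 in tissue, 3.62, 3.66 and 3.67 in cultured cells, and 6.24, 5.42 and 5.44 in neurospheres. It moved the same way at a lower level, by 0.63, 2.05 and 2.68 in the same order, all past the threshold, and it was near background in tissue and in cultured cells, with 2 of its neurosphere arrays under the reference too.

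Epgn moved little and stayed near background in all 3 groups. Epigen is a low-affinity EGF receptor ligand known from epithelia. Probe set 1449994_at read 4.62, 4.44 and 4.52 in tissue, 4.57, 4.84 and 4.64 in cultured cells, and 5.40, 5.19 and 5.18 in neurospheres. All neurosphere arrays were above all others, while tissue and cultured cells overlapped and did not differ by the test (0.16, SE 0.098, adjusted p = 0.197). Neurospheres exceeded tissue by 0.73 (SE 0.099, adjusted p = 0.000191), a 1.66-fold signal difference that passed. Their difference from cultured cells, 0.58 (SE 0.10, adjusted p = 0.0032), was 1.49-fold and so fell just short of the fold threshold. Without cultured cell array 2 or neurosphere array 2 or 3 it passed, at 0.65, 0.61 and 0.61. Without neurosphere array 1 it was 0.50 and did not pass, while the difference from tissue was 0.66 and still passed.

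Epgn, Ereg, Areg and Btc lie in that order on mouse chromosome 5 in the GRCm38.p6 annotation, with no other protein-coding gene listed between them. All 3 measured genes of this cluster were highest in neurospheres, but Epgn was near background in every group and its level is not compared with those of Ereg and Btc. The promoter windows of the outer pair, which are 250 bases before to 50 after the RefSeq transcript start, are printed because Btc passed between cultured cells and neurospheres on both of its probe sets, while Epgn, at the other end of the cluster, stayed near background. The sequences are of the C57BL/6J reference and not of the CBA/CaJ mice studied. Capitals mark a TATAAA match, and each sequence runs 5′ to 3′ on the strand of its gene.
Epgn promoter, GRCm38.p6, chr5:91027267-91027566, plus strand: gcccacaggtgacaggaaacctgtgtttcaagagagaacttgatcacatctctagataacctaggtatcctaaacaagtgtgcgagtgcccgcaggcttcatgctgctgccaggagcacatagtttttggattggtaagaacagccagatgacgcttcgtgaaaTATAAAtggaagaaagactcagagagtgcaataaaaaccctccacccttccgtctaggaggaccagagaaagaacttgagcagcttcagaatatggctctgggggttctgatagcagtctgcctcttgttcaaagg
Btc promoter, GRCm38.p6, chr5:91402945-91403244, minus strand: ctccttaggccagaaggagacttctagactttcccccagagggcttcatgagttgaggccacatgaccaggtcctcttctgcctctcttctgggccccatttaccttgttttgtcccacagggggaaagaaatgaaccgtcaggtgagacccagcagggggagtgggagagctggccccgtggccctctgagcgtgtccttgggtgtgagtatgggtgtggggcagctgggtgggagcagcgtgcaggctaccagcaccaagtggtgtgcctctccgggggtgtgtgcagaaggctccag

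The 2 windows differ in base composition. The Epgn window holds 47.3% G and C and the Btc window 60.3%, against a median of 52.7% over the 32851 mouse promoter windows used. The windows of a whole chromosome were left out of these. Both the Epgn and the Btc window hold 5 CpG pairs, against a median of 7. Both strands were searched for 4 motifs: the AP-1 site TGACTCA, the cyclic AMP response element TGACGTCA, the TATA box letters TATAAA and the ETS core CCGGAAG. Of the windows used 5.2%, 1.79%, 13.6% and 8.86% hold them. The Epgn window has TATAAA starting 86 bases before the start, and the Btc window has none of the 4. Among the members windows were used for 6 of the 8 genes. The source held none for Ereg, and none was used for Hbegf. The Egfr window, chr11:16751953-16752252 on the plus strand with 62.3% G and C and 15 CpG, has an ETS match 120 bases before the start. The Areg window has TGACGTCA at 61 and TATAAA at 31 bases before the start. The windows of Tgfa (70.7% G and C, 24 CpG) and Egf (49% G and C, 0 CpG, the more upstream of 2 starts) have none of the 4. A match or its absence describes these letters in these windows and says nothing of a factor.

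Egf itself was a tissue transcript that was near background in both cultures. EGF is the founding ligand, made in quantity by kidney and salivary gland. Probe set 1418093_a_at read 7.86, 7.55 and 8.42 in tissue, 5.06, 5.14 and 5.31 in cultured cells, and 4.79, 4.63 and 4.87 in neurospheres. Tissue stood far above the rest, and neurospheres lay below cultured cells without overlap. The fall from tissue was -2.77 (SE 0.19, adjusted p = 8.8e-07) to cultured cells and -3.18 (SE 0.20, adjusted p = 1.32e-06) to neurospheres, or 6.84-fold and 9.07-fold in signal against groups near background. Between the cultures the difference was -0.41 (SE 0.10, adjusted p = 0.0152), 1.33-fold, which did not reach the fold threshold. The EGF in neurosphere medium is added protein, and the array measures only transcript.

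Tgfa was the other gene that was highest in tissue, but its 3 probe sets did not move together. TGF-alpha is a high-affinity EGF receptor ligand expressed in many epithelia and in parts of the nervous system. Probe set 1421943_at, the brightest of the 3, read 9.33, 9.22 and 9.34 in tissue, 6.80, 6.92 and 6.90 in cultured cells, and 6.49, 7.16 and 6.70 in neurospheres. Tissue did not overlap with either culture, and the cultures overlapped each other. The fall from tissue was -2.42 (SE 0.083, adjusted p = 6.46e-09) to cultured cells and -2.51 (SE 0.16, adjusted p = 1.41e-06) to neurospheres, and the cultures differed by -0.097 (95% interval -0.46 to 0.27, adjusted p = 0.686). Without neurosphere array 1 the last 2 values were -2.37 and 0.049. Probe set 1421942_s_at stayed between 5.63 and 6.18 on all 9 arrays and passed nowhere. Probe set 1450421_at was near background in tissue and differed the other way, by 0.42 in cultured cells and 0.55 in neurospheres (adjusted p = 0.00144 and 0.000694 over all probe sets), under the fold threshold. The fall of Tgfa was thus seen on 1 of its 3 probe sets, and as the mean of the 3 it was -0.68 in cultured cells and -0.66 in neurospheres.

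Markers of nerve cells moved with the fall of Egf and Tgfa. Neuron markers, 6 of 6 measured, had a mean level over the list of 12.4 to 12.7 on the tissue arrays, 5.36 to 5.65 in cultured cells and 6.04 to 6.20 in neurospheres. Myelinating glia markers, 4 of 6 measured, had 12.4 to 12.5, 7.67 to 8.14 and 7.24 to 7.38, and Schwann lineage markers, 5 of 5, had 9.96 to 9.98, 6.75 to 7.23 and 6.95 to 7.44. All 6 neuron markers and all 4 myelinating glia markers fell in both cultures against tissue, as did 4 of the 5 Schwann lineage markers. Of all genes, 22% fell in cultured cells and 21% in neurospheres. From cultured cells to neurospheres 2 neuron markers rose, Snap25 from 4.73 to 7.78 and Nefm from 5.36 to 6.36. In that step 1 myelinating glia marker fell, and none of the Schwann lineage markers passed. Epithelial markers, 6 of 6, had a list mean of 7.73 to 7.85 in tissue, 6.85 to 7.17 in cultured cells and 5.22 to 5.81 in neurospheres, with Krt14 near background throughout. Of these 6, 4 fell in neurospheres against tissue, whereas in cultured cells 2 fell and 2 rose, namely Krt8 and Krt18. The part of any of these cell types in the fall of Egf and Tgfa was not tested.

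Other marker lists stood beside the rise of Ereg, Hbegf and Btc. Fibroblast markers, 7 of 7, were measured above the background reference on every array, with a list mean of 11.1 to 11.4 in tissue, 11.6 to 11.9 in cultured cells and 11.6 to 11.8 in neurospheres. Its members went both ways, with 5 rising and 1 falling in neurospheres and 3 rising and 2 falling in cultured cells against tissue. Cell cycle genes, 4 of 5, were at 4.64 to 4.86 in tissue, with none above the reference on all tissue arrays, and rose to 11.3 to 11.4 in cultured cells and 9.43 to 9.93 in neurospheres. Macrophage markers, 7 of 8, went the other way, from 7.19 to 7.33 in tissue to 5.30 to 5.60 and 5.25 to 5.66, with Ptprc near background in both cultures. Mast cell markers, 5 of 5, were at 5.63 to 5.67, 5.33 to 5.43 and 4.65 to 4.77, a course set by Kit (10.36, 8.86 and 5.24), since Cpa3, Tpsb2, Mcpt4 and Fcer1a were near background in all 3 groups. Endothelial markers, 4 of 4, were at 7.28 to 7.38, 7.06 to 7.15 and 5.95 to 6.16, with Pecam1 near background throughout, and in neurospheres against tissue 3 of the 4 fell and 1, Cdh5, rose. The part of these cell types in the rise of the ligands was not tested.

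**Figure D2:**
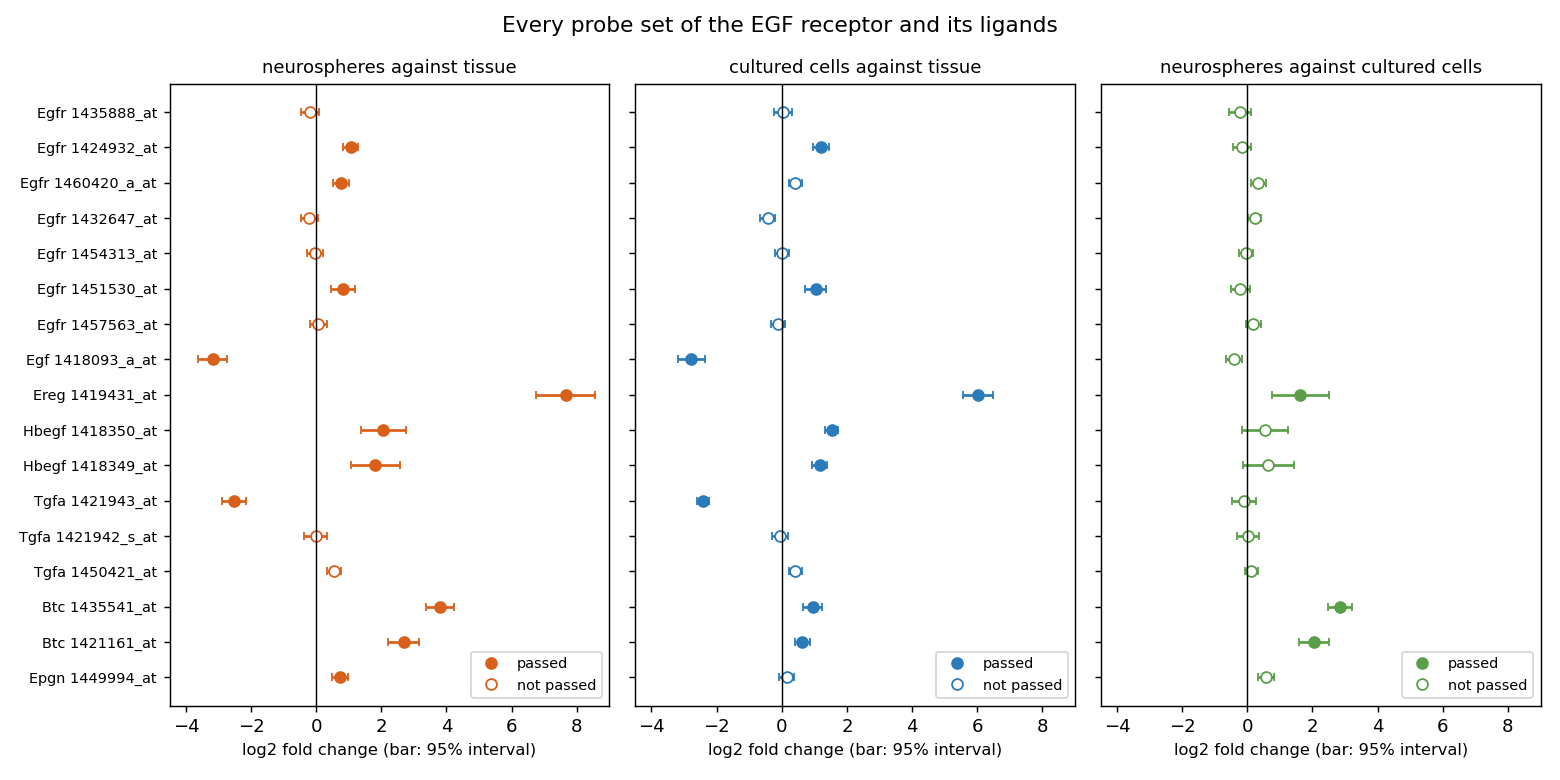
Log2 fold change (x axis) with its 95% interval for each of the 17 probe sets (y axis) in the 3 comparisons, from the limma fit over all probe sets. Filled points passed the adjusted p and fold thresholds and open points did not, and the Ereg, Hbegf and Btc probe sets lie to the right of 0 while the Egfr and Tgfa probe sets split.

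The receptor gene Egfr passed in none of the 3 comparisons on its brightest probe set, whereas 3 of its other 6 probe sets rose. Probe set 1435888_at read 9.08, 9.11 and 8.98 in tissue, 8.84, 9.34 and 9.12 in cultured cells, and 8.98, 8.64 and 8.98 in neurospheres. All 3 groups overlapped, with means of 9.06 ± 0.069, 9.10 ± 0.25 and 8.87 ± 0.20 (SD, n = 3). The differences were 0.043 (95% interval -0.24 to 0.32, adjusted p = 0.781) for cultured cells against tissue, -0.19 (-0.45 to 0.073, adjusted p = 0.185) for neurospheres against tissue and -0.23 (-0.57 to 0.11, adjusted p = 0.273) for neurospheres against cultured cells. All bounds of these intervals lay within 1.5-fold, and on this probe set no neighbouring pair of groups differed beyond its spread.

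Probe set 1424932_at differed, with 7.26, 7.15 and 7.09 in tissue, 8.23, 8.60 and 8.30 in cultured cells, and 8.38, 8.13 and 8.17 in neurospheres. Both cultures lay above tissue without overlap, by 1.21 (SE 0.11, adjusted p = 5.50e-06) and 1.06 (SE 0.10, adjusted p = 1.94e-05), and the cultures overlapped. Probe set 1460420_a_at read 7.11, 7.29 and 7.16, then 7.64, 7.63 and 7.54, then 8.10, 7.91 and 7.80, so that each group stood above the group before. Its rise of 0.75 in neurospheres against tissue passed (adjusted p = 0.000252), its 0.42 in cultured cells and its 0.33 between the cultures were under the fold threshold. Probe set 1451530_at read 4.76, 4.78 and 4.27 in tissue, near background, 5.72, 5.72 and 5.50 in cultured cells, and 5.69, 5.32 and 5.28 in neurospheres, of which 2 arrays were under the reference as well. It passed against tissue with 1.04 and 0.82, at signals close to background. Of the 7 Egfr probe sets 3 thus rose in neurospheres against tissue, beside 43.1% of all probe sets passing, 24.3% upward and 18.8% downward. In cultured cells 2 rose, beside 43.7% passing, 24% upward and 19.7% downward, and between the cultures none passed, beside 17.5%, 8.14% upward and 9.39% downward.

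The other 3 Egfr probe sets did not pass anywhere. Probe set 1432647_at was at 6.97, 6.68 and 6.65 in tissue, 6.34, 6.27 and 6.39 in cultured cells and 6.61, 6.47 and 6.60 in neurospheres, a difference of -0.43 (adjusted p = 0.005) for cultured cells against tissue that stayed under the fold threshold. Probe sets 1454313_at and 1457563_at were near background in all 3 groups. As the mean of its 7 probe sets, Egfr differed between neurospheres and tissue by 0.33 (adjusted p = 0.0126), opposite in sign to its brightest probe set and under the fold threshold. Which part of the transcript each probe set reads was not analysed here. The actin 3' to 5' difference was largest in tissue, at 2.71 against 0.36 and 0.70. Its part in the disagreement between probe sets of Egfr, of Tgfa and of the pathway genes below was not tested.

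**Figure D3:**
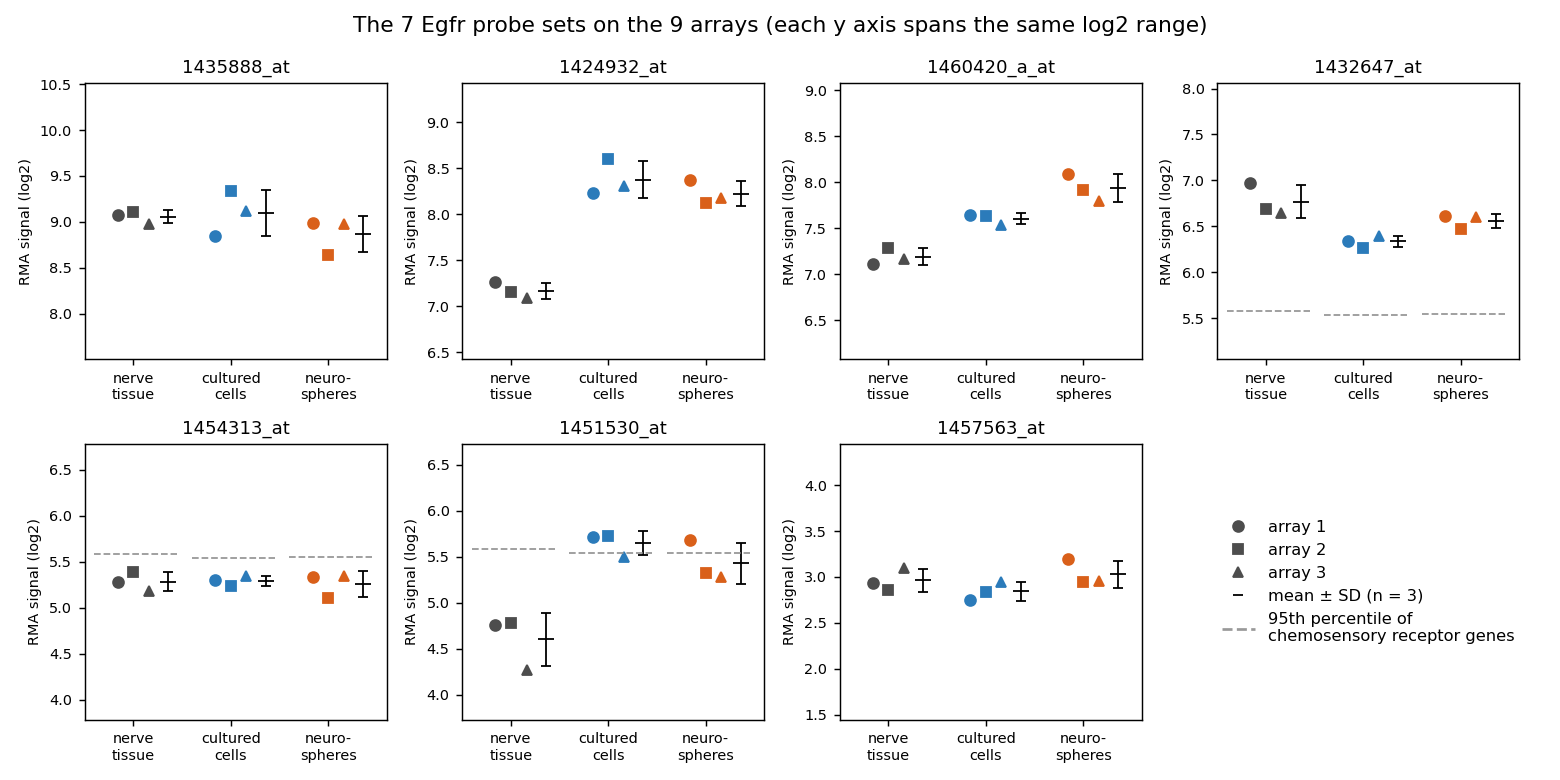
Log2 RMA signal (y axis, each panel with its own offset but the same span) of the 7 Egfr probe sets on the 9 arrays of nerve tissue, cultured cells and neurospheres (x axis). Symbols mark the array number, bars the mean ± SD of 3 arrays, and dashed lines, where they fall inside a panel, the background reference. Probe sets 1424932_at, 1460420_a_at and 1451530_at were lower in tissue than in both cultures, while 1435888_at overlapped in all groups.

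The other ErbB receptors each had a course of their own. Erbb2, the partner receptor that binds no ligand itself, had mean levels of 6.97 ± 0.10 (SD, n = 3) for tissue, 7.79 ± 0.14 for cultured cells and 7.08 ± 0.24 for neurospheres, so that it rose by 0.82 (adjusted p = 5.17e-05) in cultured cells and fell by 0.72 (adjusted p = 0.0036) from there to neurospheres. Erbb3, a neuregulin receptor that also served here as a Schwann lineage marker, was at 10.68, 7.24 and 7.39, so that it fell by 3.44 in cultured cells and fell by 3.29 in neurospheres, although its second probe set did not pass. Erbb4, which can bind Ereg, Hbegf and Btc as well, was near background in all groups at 2.72, 2.76 and 2.85.

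The genes of the pathway around the receptor were taken as a list of 67, of which 62 were measured and 5 adaptors and kinases were not analysed here. In neurospheres against tissue 37 of the 62 rose, 5 fell and 20 did not pass, or 67.7% passing beside 42.7% of all genes. The median log2 change of the list was 1.07, beside 0.047 over all genes. In cultured cells against tissue 33 rose and 6 fell, or 62.9% passing beside 42.4% of all genes, with a median of 0.74 beside -0.0091. In neurospheres against cultured cells 24 rose and 7 fell, or 50% passing beside 17.9% of all genes, with a median of 0.37 beside 0.051. The list was chosen with earlier results of these data known, so these counts and medians are not a test of it.

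Proteases that release the ligands were listed with their carriers and with the protease inhibitor Timp3, and most of these genes were higher in culture than in tissue. Of 11 genes, each on its brightest probe set, 8 rose in neurospheres and 7 in cultured cells against tissue, and none fell, while 2 rose and 2 fell between the cultures. In that order 72.7%, 63.6% and 36.4% passed, beside 42.7%, 42.4% and 17.9% of all genes. Levels below are given in the order tissue, cultured cells, neurospheres, and rises over tissue in the order cultured cells, neurospheres. Adam17, the main sheddase of most of these ligands, had 8.84 ± 0.11, 10.28 ± 0.13 and 10.70 ± 0.097 (SD, n = 3) and rose by 1.44 and 1.86 (adjusted p = 8.21e-07 and 4.23e-07), with 0.42 between the cultures, under the fold threshold. Adam12, a protease known to act on HB-EGF, was highest in cultured cells at 11.15, against 7.77 in tissue and 9.24 in neurospheres, and fell by 1.91 between the cultures. Adam9 rose by 1.83 and 1.61 over tissue, and Adam19 by 1.66 and 2.36. Rhbdf2, a carrier that brings ADAM17 to the cell surface, was at 7.73, 7.16 and 7.80, and it rose by 0.64 (adjusted p = 0.0043) from cultured cells to neurospheres, while Timp3, an inhibitor of ADAM17, rose by 0.99 (adjusted p = 2.08e-05) in cultured cells over tissue and fell by 0.93 over the same step (adjusted p = 0.000154).

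Genes that restrain the receptor or take it from the membrane were the group with rises and no fall between the cultures, on 1 probe set per gene. Of 14 genes 7 rose and none fell from cultured cells to neurospheres, whereas against tissue 6 rose and 1 fell in neurospheres, and 6 rose and 2 fell in cultured cells. In that order 50%, 50% and 57.1% passed, beside 17.9%, 42.7% and 42.4% of all genes. Lrig1, a membrane protein that promotes degradation of EGF receptor, was at 8.39 ± 0.31, 7.96 ± 0.23 and 11.08 ± 0.29 (SD, n = 3), a rise of 3.12 (adjusted p = 5.35e-06) between the cultures on 2 of its 3 probe sets. Errfi1, an inhibitor that binds the receptor's kinase domain, rose at each step, from 11.08 to 11.79 and 12.38, the last step by 0.59 (adjusted p = 0.0247). Sh3kbp1, an adaptor of receptor endocytosis, rose by 1.83 and then by a further 1.28, and Lrig3 by 1.77 and 0.71. Lrig2 fell by 1.69 and 1.04 against tissue on its brighter probe set, while its second probe set rose by 1.24 and 1.29, and Eps15, an endocytic adaptor, fell by 1.10 in cultured cells with 1 of its 4 probe sets rising by 0.76.

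Adaptors and kinases between receptor and ERK went both ways. Of the 13 measured, each on its brightest probe set, 4 rose and 3 fell in each comparison with tissue, and none rose and 2 fell between the cultures. Against tissue 53.8% passed in each culture, beside 42.7% of all genes in neurospheres and 42.4% in cultured cells. Between the cultures 15.4% passed, beside 17.9% of all genes. The adaptor Shc1 rose by 1.69 in cultured cells and 1.91 in neurospheres, and the GTPase gene Nras by 1.09 and 1.05. The exchange factor gene Sos2 fell by 1.002 and 1.17. The docking protein gene Gab1 fell by 0.84 and 1.48, and by 0.64 from cultured cells to neurospheres, although 1 of its 3 probe sets rose in both cultures against tissue. The kinase gene Braf rose by 0.74 in cultured cells and fell by 0.98 (adjusted p = 3.39e-05) from there to neurospheres.

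Feedback and early response genes downstream of ERK had the highest median of the 5 sublists in each comparison. Of 21 genes 19 rose and none fell in neurospheres against tissue, with a median of 2.93. In cultured cells against tissue 15 rose and none fell, with a median of 1.81. From cultured cells to neurospheres 15 rose and 2 fell, with a median of 0.997. In that order 90.5%, 71.4% and 81% passed, beside 42.7%, 42.4% and 17.9% of all genes. Dusp6, the phosphatase that shuts off ERK, was at 9.55 ± 0.082, 10.77 ± 0.11 and 12.90 ± 0.042 (SD, n = 3) and rose by 1.22 and then by 2.14 (adjusted p = 1.52e-06 and 1.50e-06). Etv4, an ETS factor induced by FGF and EGF signals, rose by 2.37 (adjusted p = 2.27e-06) between the cultures after a difference of 0.56 in cultured cells that did not pass.

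Fos and Egr1, immediate early genes that encode transcription factors, were the 2 genes of this group that fell between the cultures. Fos rose by 4.77 in cultured cells and fell by 1.23 (adjusted p = 0.0081) from there to neurospheres, and Egr1 rose by 3.89 and fell by 0.65 (adjusted p = 0.0251). Fosl1, an AP-1 subunit that accumulates under lasting ERK activity, was at 4.93, 7.60 and 8.44 and rose at each step, by 2.67 and 0.84. Ptgs2, which encodes cyclooxygenase-2, rose by 4.61 and 1.17, and Ier3 by 2.75 and 2.07, which gave the 2 largest rises of the list over tissue in neurospheres, 5.78 and 4.82. FGF was added to the neurosphere medium with EGF and acts on the same feedback genes, so their part in these values cannot be told apart.

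**Figure D4:**
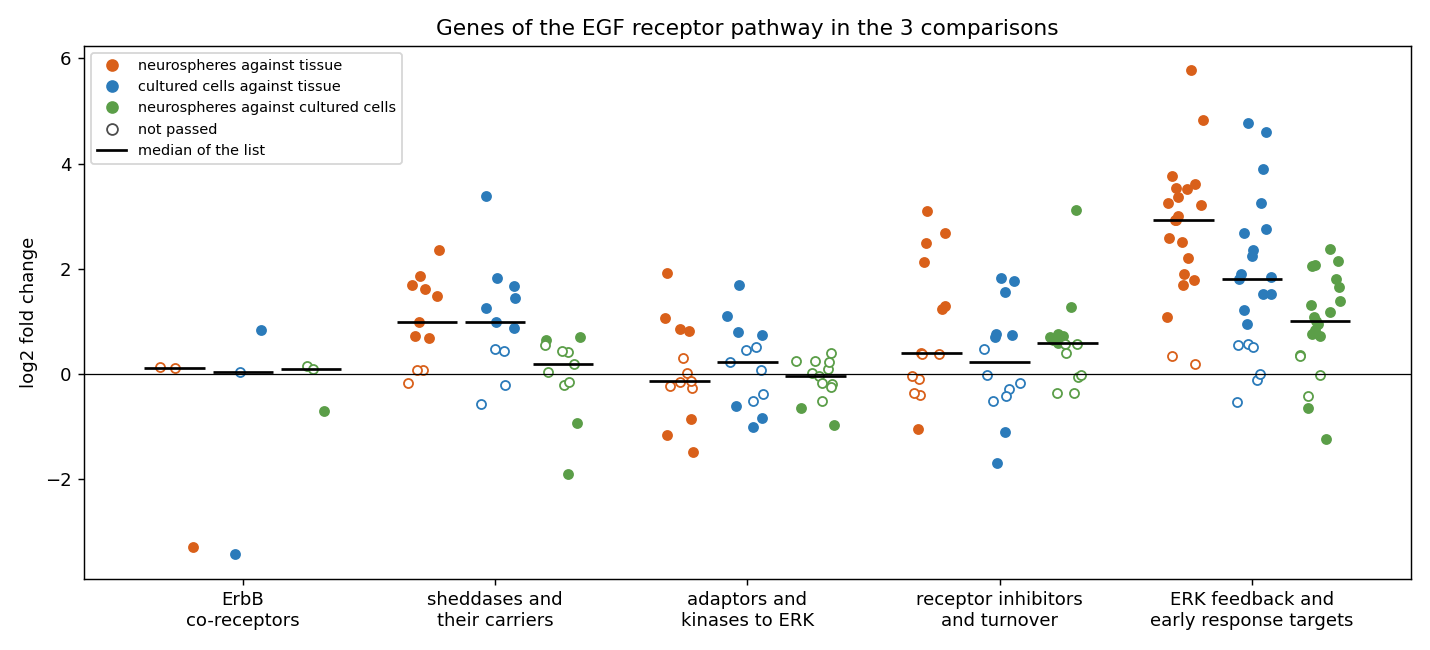
Log2 fold change (y axis) of each measured gene of the pathway list, by sublist (x axis) and comparison (colour), with a bar at the median of each sublist and open points for genes that did not pass. The ERK feedback and early response targets lie highest, with medians of 2.93, 1.81 and 0.997, and the adaptors and kinases lie around 0.

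The genes with the most similar course over the 9 arrays were sought for each ligand, among 16442 other named genes, by the root mean square difference of log2 levels centred on each gene's own mean. Nearest to Hbegf were Dusp14, a phosphatase gene, at 0.18, Itprip at 0.21 and Galnt18 at 0.25. The nearest to Ereg lay farther off, with the protease inhibitor gene Timp1 at 0.69, the chemokine gene Ccl7 at 0.71 and the cytokine gene Il6 at 0.72. All 3 had higher mean levels in both cultures than in tissue and were highest in neurospheres. Btc was nearest to Gda at 0.23, Klf10 at 0.27 and Hmga2-ps1 at 0.27. Tgfa on its brightest probe set was nearest to Fam219a at 0.12, Med12l at 0.12 and Dtna at 0.12, and Egf to Tmem196 at 0.18, Col4a3 at 0.20 and Eif5a2 at 0.20. Epgn, which moved little, was within 0.065 of Dpm2 and Carmil1 and 0.07 of Snx25. These distances describe 9 arrays in 3 groups and carry no test.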

How the data were processed

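RNA from 9 samples was labelled by 3' in vitro transcription and hybridised to Affymetrix Mouse Genome arrays. The authors deposited log2 signals computed by RMA. Their processing notes name Affymetrix Expression Console and MAS5 as well, with versions not given in the sources used here. RMA quantile-normalizes arrays, which assumes like overall distributions, and no depth applies, so the number of arrays limits the precision. From the 45101 probe sets, controls (64) and those naming several genes (932) or none (9160) were left out. For the gene fit the probe set with the highest mean stood for each of 18193 genes, while every probe set of a member is described from a second fit over all 34945. Groups were compared on the 6 arrays of each pair with limma 3.58.1 in R 4.3.3 (lmFit, eBayes, 2-sided). The study's methods name Student's test with the same fold threshold, which was run as an alternative. The fit was also run on simulated data in which far fewer genes differed than here, so no error rate is taken from it. Named genes were all members, 9 fixed pathway genes, the 2 largest rises and falls of each pathway sublist among genes that passed, and the 3 nearest profiles of each member that passed. Ptprk, Adam10, Sos1, Akt1, Grb2 and Pik3ca are named besides, because their probe sets disagreed. The members and lists were chosen with earlier results of these data known. Promoter windows are RefSeq's for GRCm38.p6. Alternatives were scaling, choice of probe set, a filter on low values, the prior, the fold threshold, a block for the replicate number and leaving out each array.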

Additional observations from a re-analysis of the deposited data

How the results depend on the processing

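Members that passed numbered 6 in neurospheres and 5 in cultured cells, each against tissue, and 2 between the cultures. The first 2 counts were kept under the alternatives run except for 5 and 4 at a fold over 2, and 4 and 4 without the 40% of genes with the lowest expression, which leaves 5 members to test. The last became 1 with a trended robust prior and 1 in the methods' t-test with Benjamini-Hochberg adjustment, where Ereg was lost, and 4 with no fold threshold, where Egf and Epgn were added. Leaving out each array in turn gave 6, 5 and 2 to 3 members, and 42, 39 to 42 and 29 to 31 genes of the pathway list. The pathway count between the cultures was 31 and became 14 at a fold over 2. At that threshold Epgn no longer passed in neurospheres against tissue, nor Btc in cultured cells against tissue.

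Among the members' fold changes, those that turned in direction under an alternative had not passed. Egfr turned to 0.33 in neurospheres against tissue and 0.015 in neurospheres against cultured cells as the mean of its probe sets, and in cultured cells against tissue to -0.039 when arrays were centred on the more highly expressed genes and to -0.076 without cultured cell array 2 (highest 0.17, without cultured cell array 1). Tgfa between the cultures turned to 0.018 as the mean of its probe sets and to 0.049 without neurosphere array 1 (lowest -0.29, without neurosphere array 2). Centring on hybridisation controls shifted the median of all genes by 0.206 in cultured cells against tissue and by -0.146 between the cultures, and moved Epgn to 0.36 and 0.43 there. Quantile normalization moved the split of all genes in neurospheres against tissue to 4402 up and 3599 down, and centring on highly expressed genes to 3485 and 4185, from 3945 and 3817. Whether the replicate numbers pair the samples cannot be settled with 3 arrays per group. Correlations of same-numbered deviations lay between -0.190 and 0.206, and those of differently numbered ones between -0.173 and 0.209. The same-numbered ones were all positive in cultured cells against tissue (0.206, 0.069 and 0.127) and all negative in neurospheres against tissue. The fit with the replicate number as a block gave 6, 5 and 2 members and 42, 39 and 30 pathway genes. For Hbegf between the cultures the interval ran from -0.20 to 1.26, with a neurosphere spread of 0.75 (SD, n = 3) that came mainly from array 1.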
